A study of Mus musculus with 27 samples.

Results

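The genes described here are transcription factors that pattern the neural tube: the zinc finger genes Zic1, Zic2, Zic4 and Zic5, the paired box genes Pax3, Pax6 and Pax7, and the homeobox genes Msx1 and Msx2. They were chosen by name, which gave 9 of the 25209 genes in the deposited tables. All cells were V6.5 mouse embryonic stem cells (mESCs), either wild type (WT) or from the Zfp512b knockout (KO) clones KO4 and KO8. Both clones carry a transcriptional terminator within Zfp512b together with a selection marker, and each group is 1 clone. No WT clone taken through the same selection is among the samples. RNA was sequenced from naive cells grown in 2iLIF on Day 0 (3 libraries per genotype), from cells primed in serum with LIF on Day 2, from embryoid bodies directed to cardiomyocytes (CM) on Day 7.5, and from embryoid bodies treated with retinoic acid to give neural progenitor cells (NPC) on Day 10 (2 libraries per genotype at each of these stages), 27 libraries in all. The labels do not say whether libraries of a group came from separate cultures, so the p-values measure the spread between these libraries, which may be technical.

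The neural tube is patterned from its dorsal side by BMP and Wnt signals and from its ventral side by Sonic hedgehog, and progenitors along this axis are told apart by the transcription factors they make. Zic, Pax3, Pax7 and Msx proteins mark dorsal progenitors, the neural plate border and neural crest precursors, whereas Pax6 is made by progenitors over a broad middle part of the tube and is needed for the eye and cortex. Zic2 and Zic5 are also made by pluripotent cells, Pax3 and Pax7 also mark muscle precursors, and Msx1 and Msx2 are targets of BMP signalling that are made in many mesenchymal tissues too.

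The Zic genes lie in divergent pairs, and their positions are shown because reads from overlapping neighbours can be counted for either gene. In mm9, the build of the files, Zic1 lies on chromosome 9 from 91252896 to 91260648 on the minus strand and Zic4 from 91257251 to 91284186 on the plus strand. These GENCODE gene models overlap by 3398 bases, of which 60 are exonic in both genes. The strand setting of the read counting is not given in the sources used here, so reads from that overlap cannot be told apart. Zic5 lies on chromosome 14 from 122856017 to 122864899 on the minus strand, and Zic2 from 122874604 to 122879074 on the plus strand, with 9704 bases between them and no shared exon. The other members share no chromosome with another member: Pax3 at chr1:78097842-78193709, Pax6 at chr2:105509053-105543317, Pax7 at chr4:139292977-139389445, Msx1 at chr5:38211724-38215822 and Msx2 at chr13:53562250-53568443. Overlap of the members with genes outside the set was not examined.

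RefSeq promoter windows, given on build GRCm38.p6, were found for 7 of the 9 members, and 4 are shown: those of Zic1, Zic4 and Pax6, which were higher in both clones at the NPC stage, and that of Msx1, which was lower. Each runs over the 250 bases before the start site, 5′ to 3′ on the strand of the gene, and Pax6 is shown at the first of its 2 listed starts. Capitals mark the letters GGGCGG of a GC box, the letters CCAAT of the box of that name or the letters TATAAA of a TATA box, each searched on both strands.
Zic1 (chr9:91365769-91366018, minus strand): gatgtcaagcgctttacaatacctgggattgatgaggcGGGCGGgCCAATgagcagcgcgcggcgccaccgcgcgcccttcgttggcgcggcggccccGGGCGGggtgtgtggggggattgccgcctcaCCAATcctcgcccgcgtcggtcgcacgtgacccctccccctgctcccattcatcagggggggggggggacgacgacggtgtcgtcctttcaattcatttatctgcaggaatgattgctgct
Zic4 (chr9:91368722-91368971, plus strand): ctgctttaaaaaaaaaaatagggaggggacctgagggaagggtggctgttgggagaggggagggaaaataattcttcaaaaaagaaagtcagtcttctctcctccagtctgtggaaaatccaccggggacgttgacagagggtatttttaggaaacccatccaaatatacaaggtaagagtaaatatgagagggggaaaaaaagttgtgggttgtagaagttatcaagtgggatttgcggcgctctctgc
Pax6 (chr2:105668646-105668895, plus strand): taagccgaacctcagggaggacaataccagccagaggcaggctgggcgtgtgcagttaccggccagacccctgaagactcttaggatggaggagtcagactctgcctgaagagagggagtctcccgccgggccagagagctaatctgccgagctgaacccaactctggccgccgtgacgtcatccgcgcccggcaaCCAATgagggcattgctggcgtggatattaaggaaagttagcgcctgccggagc
Msx1 (chr5:37824586-37824835, minus strand): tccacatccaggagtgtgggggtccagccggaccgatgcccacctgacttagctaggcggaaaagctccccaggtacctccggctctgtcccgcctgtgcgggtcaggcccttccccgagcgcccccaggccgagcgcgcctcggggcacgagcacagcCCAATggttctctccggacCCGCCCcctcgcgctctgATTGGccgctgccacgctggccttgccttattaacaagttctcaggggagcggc
The Zic1 window held 2 GC boxes and 2 CCAAT boxes, the Msx1 window 1 GC box and 2 CCAAT boxes, and the Pax6 window 1 CCAAT box. The Zic4 window held none of these letters, and at 44.4% it had a lower GC content than the 66% of Zic1. Among the 32851 promoter windows of the same length, 32.7% held a GC box, 33.8% a CCAAT box and 12.4% a TATA box, so the matches describe common sequences and not sites of a named factor.

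The deposited tables give only 1 level per gene and comparison, the mean over the WT libraries and those of 1 clone. The whole read counts of the single libraries were rebuilt from these means, which was possible for lowly and moderately expressed genes. Counts were resolved for 7 members at the naive stage, 8 at the primed and CM stages and all 9 at the NPC stage. Zic2 before the NPC stage and Zic5 in naive cells were too highly expressed, and only the authors' means are given for them. Libraries are numbered by depth within a group, and the numbers only name them. Depth here is the size factor of a library times the mean normalised total of its stage, and not a separate count of reads. By this measure it was about 34.3 to 39.6 M reads per library at the naive stage and 15.1 to 19.4 M at the others. The size factors within a stage lay close together (0.951 to 1.07 at the CM stage, 0.958 to 1.11 at the NPC stage). Zfp512b itself was resolved at the primed and CM stages. At the primed stage it had 977 and 979 counts in WT against 188 and 213 in KO4 and 183 and 135 in KO8. At the CM stage it had 1199 and 1076 counts in WT, 179 and 199 in KO4 and 165 and 169 in KO8. At the naive and NPC stages its libraries could not be separated.

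The 2 KO8 NPC libraries stood apart from each other. In KO8 NPC, the second library differed from the first by more than 2-fold for 9.52% of tested genes, against 3.8% between the WT and 3.6% between the KO4 libraries of that stage. All 9 members were higher in that second library than in the first, by a median of 1.81-fold in normalised counts. On the log2 scale this was 0.85, where the median over all tested genes was 0.05. A difference within a pair cannot show which of the 2 libraries is unusual. Fold changes, calls and stage differences of the members at the NPC stage are therefore also given without the second, and the calls also without the first.

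In naive cells Zic1, Zic4, Pax3 and Pax7 had few or no reads. Zic4 had 0 counts in all 9 libraries, where the floor of 3 counts corresponds to at most 0.0875 CPM (the count divided by the depth of the library in M reads). Zic1, Pax3 and Pax7 had between 0 and 6 counts per library in every genotype. Pax6 had 5, 2 and 2 counts in the WT libraries, 8, 7 and 14 in KO4 and 6, 13 and 5 in KO8, and Msx1 had 0, 0 and 4 in WT, 2, 4 and 4 in KO4 and 6, 4 and 10 in KO8. These are counts near the floor, and they fell under the filter on low values (a mean normalised count of at least 10 over the stage). Msx2 was the only naive member tested. It had 31, 37 and 30 counts in WT, 32, 33 and 32 in KO4 and 36, 33 and 25 in KO8, and the groups overlapped, with log2 fold changes of 0.04 ± 0.27 (SE) in KO4 and -0.02 ± 0.28 in KO8 (limma, adjusted p = 0.945 and 0.966), where 23.1% and 22.5% of the 2619 tested genes were called at an adjusted p under 0.05. At an unadjusted p under 0.05, 907 and 926 genes passed, without Msx2. In naive KO8 the median log2 fold change of all tested genes was 0.11 with the authors' scaling. It was -0.01 when libraries were scaled by the summed counts of these tested genes, which moved the share of higher genes among those called from 69.2% to 54.8%. That sum leaves out the unresolved, highly expressed genes and is not the library total. For Zic2 the authors' mean was 1678 in the KO4 table and 1402 in the KO8 table, and for Zic5 555 and 516. Both tables hold the same WT libraries, so once the KO8 table is put on the scale of the KO4 table the difference between the means gives that between the clones. Zic2 was higher in KO4 than in KO8 by 557 normalised counts on average, and Zic5 by 80.1. Neither difference has an error, and neither clone can be set against WT from these means.

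Primed cells kept Zic5 and showed little of the other resolved members. Zic5 had 802 and 646 counts in WT, 582 and 651 in KO4 and 683 and 556 in KO8. The ranges of all 3 genotypes overlapped. Its log2 fold change was -0.16 ± 0.09 in KO4 and -0.08 ± 0.09 in KO8 (limma, adjusted p = 0.2 and 0.591). Pax6 had 66 and 58 counts in WT, 86 and 61 in KO4 and 89 and 81 in KO8. Both KO8 libraries lay above both WT libraries, as for 24.2% of tested genes, but the difference of 0.59 ± 0.24 on the log2 scale had an adjusted p of 0.0876 (limma). Msx2 had between 7 and 24 counts per library, with overlapping groups. None of the 3 tested members was called in either clone by limma, against 20% of 8938 tested genes in KO4 and 14.6% in KO8. At an unadjusted p under 0.05, 2841 genes passed in KO4 and 2388 in KO8, with 1 member (Pax6) among the latter. The other resolved members had at most 9 counts in any primed library, and Zic4 was at 0 in all 6. The authors' mean of Zic2 was 1389 in the KO4 table and 1424 in the KO8 table, which on a common scale puts KO8 above KO4 by 139 normalised counts.

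**Figure D1:**
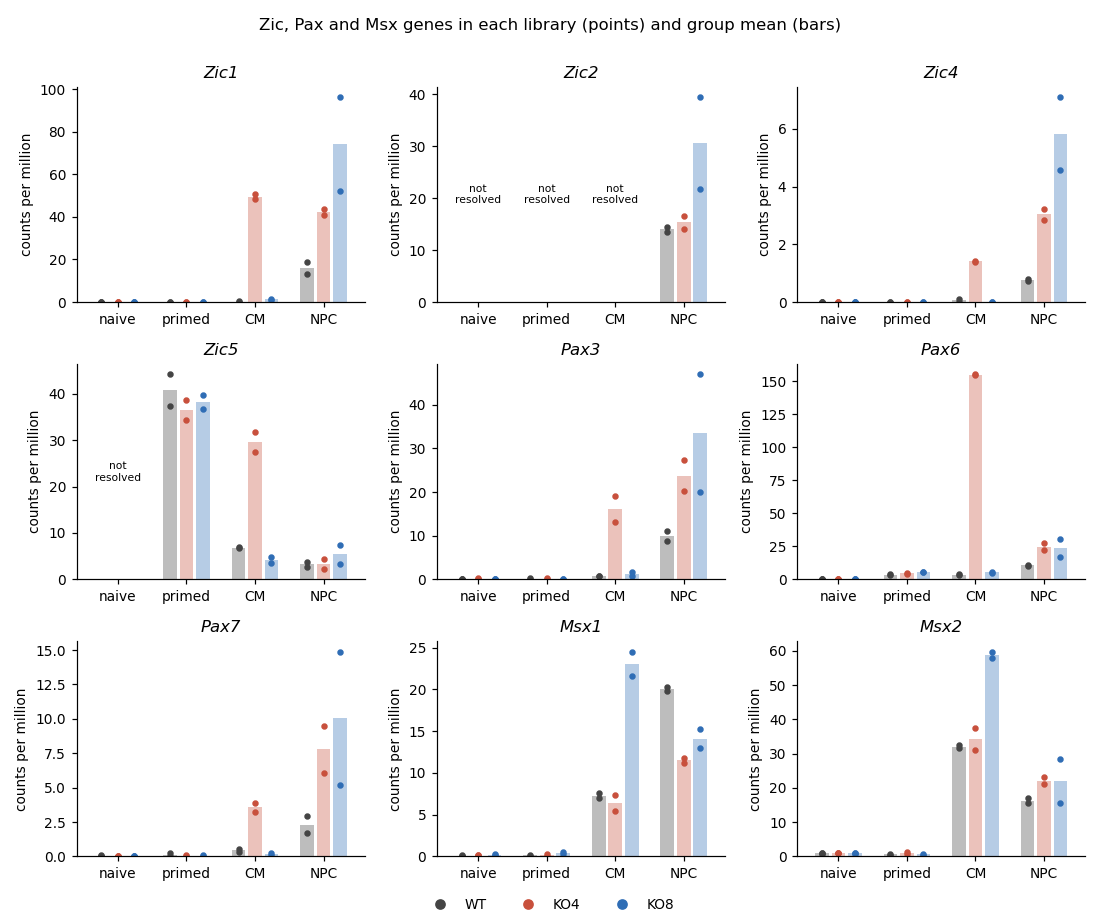
CPM (vertical axis, linear from 0, scaled for each gene) of the 9 members at the 4 stages (horizontal axis) in WT (grey), KO4 (red) and KO8 (blue); points are libraries, bars are group means, and stages without resolved counts are marked. Pax6 in KO4 reached 155 CPM at the CM stage, while Msx1 and Msx2 were highest in KO8 at that stage.

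At the CM stage the 5 tested Zic and Pax members, Zic1, Zic5, Pax3, Pax6 and Pax7, rose in KO4, by 4.35-fold to 197-fold in the fitted values, and Msx1 and Msx2 rose in KO8. The calls are those of limma at an adjusted p under 0.05, by which 24.4% of the 9115 tested genes were called higher in KO4, 30.2% lower and 54.6% in either direction. Of the 9 members, 7 passed the filter and were tested. Pax7 passed it only through KO4, with a mean normalised count of 64.5 there against 8.08 in WT and 3.37 in KO8, so that it had to differ, and 4 of the 5 calls do not rest on such a passage. The median log2 fold change of all tested genes was -0.05 in KO4 and -0.01 in KO8. In bulk samples, fewer cells of a type and less RNA per cell cannot be told apart, and this holds for each level given here.

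Pax6, the factor of the broad middle part of the tube, had 59 and 66 counts in the WT libraries, 2724 and 2650 in KO4 and 100 and 88 in KO8. The KO4 libraries stood far above all others, and KO8 lay a little above WT without overlap. The log2 fold change was 5.54 ± 0.19 in KO4 (46.4-fold, limma, adjusted p = 3.87e-09) and 0.62 ± 0.24 in KO8 (adjusted p = 0.0764).

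Zic1 was almost silent in WT CM cultures. It had 3 and 6 counts in WT, 847 and 872 in KO4 and 18 and 28 in KO8. The 3 genotypes did not overlap. Because the WT counts are so low, the ratio of KO4 to WT was also computed from the summed counts (1719 against 9), which gave 207-fold with an exact 95% interval of 109 to 454. The same ratio for KO8 (46 against 9 counts) was 5.23-fold with an interval of 2.53 to 12.1. These intervals cover counting error only. They take each count as independent and are too narrow if reads of a pair were counted singly. The fit gave 7.62 ± 0.60 on the log2 scale in KO4 (adjusted p = 5.61e-07) and 2.30 ± 0.67 in KO8 (limma, adjusted p = 0.0236). The KO8 call was lost without the first WT library (log2 fold change 1.80, adjusted p = 0.11) and without the second KO8 library (1.93, adjusted p = 0.103).

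Zic4, the neighbour of Zic1, had 0 and 2 counts in WT, 25 and 24 in KO4 and 0 and 0 in KO8. Its mean over the stage fell under the filter, so it was not tested in the comparison above. From the summed counts, 49 in KO4 against 2 in WT gave a ratio of 26.6 with an exact 95% interval of 6.97 to 225. Against KO8, with 0 counts in both libraries, KO4 was at least 17.3-fold higher, counting 3 reads over the group as the floor. Without the filter Zic4 was called in KO4 at an adjusted p of 0.0016 (limma).

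Zic5 had 129 and 126 counts in WT, 482 and 546 in KO4 and 93 and 61 in KO8. KO4 lay above WT and KO8 below it, with no overlap. The log2 fold change was 2.12 ± 0.17 in KO4 (adjusted p = 7.69e-07) and -0.71 ± 0.25 in KO8, where the adjusted p of 0.04999 (limma) lay at the threshold and rose above it without any one of the 6 libraries, to between 0.0538 and 0.31. For Zic2 the authors' means were 2024 in the KO4 table and 559 in the KO8 table. Since the WT libraries enter both means, on the scale of the KO4 table the WT mean can be at most 1086 normalised counts and the KO4 mean must be at least 2962, so that KO4 was at least 2.73-fold higher than WT and than KO8. This bound follows from the means alone and has no error. Neighbouring Zic2 and Zic5 thus both had more RNA in KO4, and the direction of Zic2 in KO8 was not resolved.

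Pax3 and Pax7, the close relatives that mark the dorsal tube and muscle precursors, were low in WT CM cultures. Pax3 had 15 and 15 counts in WT, 231 and 328 in KO4 and 32 and 14 in KO8. Pax7 had 11 and 6 counts in WT, 57 and 67 in KO4 and 5 and 2 in KO8. For both genes KO4 stood clear of the other libraries. The log2 fold change in KO4 was 4.27 ± 0.49 for Pax3 and 2.96 ± 0.50 for Pax7 (limma, adjusted p = 1.34e-05 and 0.0003). In KO8 it was 0.54 ± 0.63 for Pax3 with overlapping groups (adjusted p = 0.577) and -1.18 ± 0.78 for Pax7, whose KO8 libraries both lay below WT (adjusted p = 0.294).

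Msx1 and Msx2 had the opposite pattern between the clones. Msx1 had 147 and 127 counts in WT, 95 and 126 in KO4 and 471 and 380 in KO8. Msx2 had 628 and 576 counts in WT, 546 and 641 in KO4 and 1112 and 1052 in KO8. KO8 was the higher group for both genes without overlap. The log2 fold change in KO8 was 1.66 ± 0.17 for Msx1 (3.16-fold) and 0.88 ± 0.10 for Msx2 (1.84-fold), with limma adjusted p-values of 2.01e-05 and 3.35e-05. In KO4 it was -0.21 ± 0.22 for Msx1 and 0.09 ± 0.11 for Msx2 (adjusted p = 0.441 and 0.49). In total 3 members were called higher (Zic1, Msx1, Msx2) and 1 lower (Zic5) in KO8, where 26.9% of tested genes were called, 13.1% higher and 13.8% lower. Only Zic1 and Pax6 of the 7 tested members lay above WT in every library of both clones, as did 14.1% of tested genes.

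**Figure D2:**
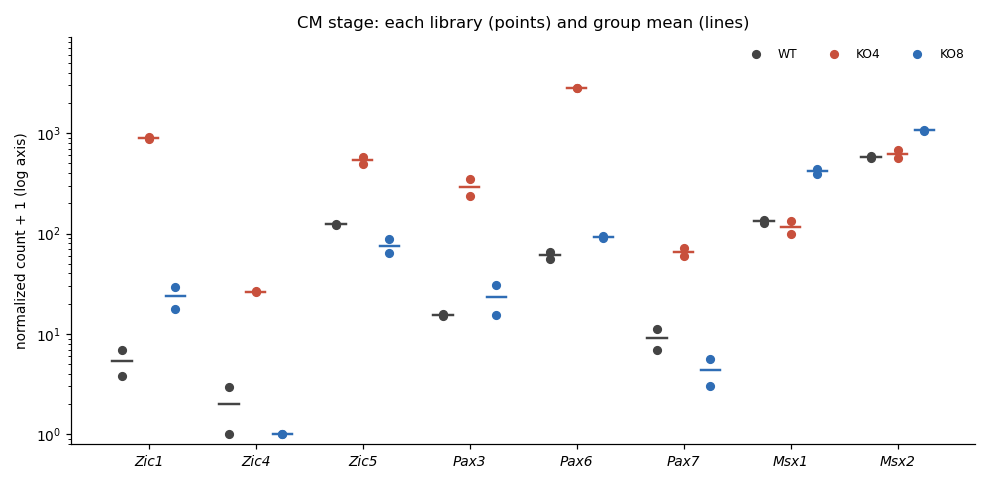
Normalised counts plus 1 (vertical axis, log scale) of the 8 members resolved at the CM stage in each library (points) with group means (lines), for WT (grey), KO4 (red) and KO8 (blue). The KO4 points lie above all others for the Zic and Pax genes, and the KO8 points for Msx1 and Msx2.

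Set directly against each other at the CM stage, the clones differed for all 7 tested members, where 52.8% of tested genes were called between KO4 and KO8, 23.7% higher and 29.1% lower in KO4. KO4 was higher for Zic1 (5.32 ± 0.33 on the log2 scale), Pax6 (4.91 ± 0.16), Pax7 (4.14 ± 0.65), Pax3 (3.73 ± 0.43) and Zic5 (2.83 ± 0.21), and lower for Msx1 (-1.87 ± 0.18) and Msx2 (-0.79 ± 0.10). The limma adjusted p-values of the members other than Pax7 ran from 2.49e-09 for Pax6 to 2.06e-05 for Msx2. That of Pax7 was 0.000168, but Pax7 passed the filter only through KO4 and so had to differ.

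Markers of other cell types moved with these values. Ryr2, the cardiac calcium release channel, was the only one of 6 cardiomyocyte markers resolved at this stage, with 1798 and 936 counts in WT, 12 and 19 in KO4 and 986 and 859 in KO8. The unresolved Tnnt2, Myh6, Myh7, Actc1 and Nkx2-5 were each lower in KO4 than in KO8 by their means, from 1355 normalised counts for Nkx2-5 to 9038 for Actc1. In KO4, the resolved marker thus went against the CM label. Of 6 neural progenitor markers, the resolved Fabp7 and Hes5 summed to 1.50 to 2.79 CPM in WT, 10.1 to 11.9 in KO4 and 2.08 to 2.44 in KO8, and the unresolved Sox1, Sox2, Nes and Cdh2 were each higher in KO4 than in KO8, Sox1 by 3348 normalised counts. The summed level of 6 of 7 naive markers was 117 to 133 CPM in WT, 167 to 229 in KO4 and 126 to 132 in KO8. In KO4, Zfp42, Nanog and Esrrb were higher and Klf4 and Tbx3 lower. The KO8 sum hides opposite changes, since Zfp42, Nanog, Esrrb and Klf4 were called lower and Tbx3 higher by limma. Tbx3 had 860 and 519 counts in WT and 1685 and 1494 in KO8. Of all tested genes, 13.8% were called lower and 13.1% higher in KO8. Of 5 neuron markers, the resolved Map2, Dcx and Elavl3 summed to 9.76 to 10.7 CPM in WT, 21.8 to 27.4 in KO4 and 3.64 to 4.77 in KO8. Map2 and Elavl3 rose in KO4, while Dcx had 52 and 64 counts in WT against 37 and 22 in KO4 (-0.88 on the log2 scale, limma, adjusted p = 0.0544). Sox17 and Foxa2, the resolved 2 of 5 endoderm markers, summed to 59.9 to 96.1 CPM in WT, 5.97 to 11.7 in KO4 and 98.7 to 100.4 in KO8. Pou3f1, a marker of primed cells, had 282 and 309 counts in WT, rose to 1209 and 1319 in KO4 and fell to 131 and 167 in KO8. In KO8, where Msx1 and Msx2 rose, the mesoderm markers Mesp1 and Tbx6 were called higher too. Mesp1 had 14 and 5 counts in WT, 14 and 27 in KO4 and 85 and 49 in KO8 (2.90 in KO8 on the log2 scale, limma, adjusted p = 0.00307). Tbx6 had 4 and 6 counts in WT, 17 and 10 in KO4 and 22 and 18 in KO8 (1.96, limma, adjusted p = 0.0348), and passed the filter only through KO8. T and Eomes, also of the mesoderm list, were not called in either clone. None of the 4 smooth muscle and mesenchyme markers (Acta2, Tagln, Col1a1 and Col3a1) was resolved at this stage. For the collagen genes Col1a1 and Col3a1, the authors' means were 18873 and 15242 in the KO8 table against 6750 and 3786 in the KO4 table. Both were thus higher in KO8 than in KO4. The means of Acta2 and Tagln are not given here. No resolved marker of these sets was at 0 in a whole group. Their part in the levels of the Zic, Pax and Msx genes was not tested.

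At the NPC stage 5 members lay higher in every KO library than in every WT library: Zic1, Zic4, Pax3, Pax6 and Pax7. Such separation of both clones above WT was seen for 16.5% of the 9243 tested genes. All 9 members were tested, and 3 different ones were called. Zic1 and Zic4 were called higher in KO8, where 4.11% of tested genes were called higher and 7.09% in either direction, and Msx1 lower in KO4, where 1.97% were called lower and 3.91% in either direction. At an unadjusted p under 0.05, 6 members passed in KO4 and 7 in KO8, against 1746 and 2257 of all tested genes. The median log2 fold change of the 9 members, all of which passed the filter, was 1.23 in KO4 and 1.12 in KO8, against -0.02 and -0.00 over all tested genes.

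Zic1 had 230 and 301 counts in WT, 708 and 700 in KO4 and 972 and 1679 in KO8. The order WT, KO4, KO8 held without overlap. The log2 fold change was 2.19 ± 0.35 in KO8 (4.58-fold, adjusted p = 0.0148) and 1.44 ± 0.37 in KO4 (2.72-fold, limma, adjusted p = 0.0753). Zic4 followed with 14 and 12 counts in WT, 56 and 46 in KO4 and 85 and 124 in KO8. It had the same order without overlap, and log2 fold changes of 2.83 ± 0.44 in KO8 (adjusted p = 0.0138) and 1.94 ± 0.47 in KO4 (limma, adjusted p = 0.0669).

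Pax3 had 157 and 178 counts in WT, 351 and 438 in KO4 and 371 and 820 in KO8. Pax6 had 179 and 172 counts in WT, 384 and 438 in KO4 and 318 and 534 in KO8. Pax7 had 30 and 47 counts in WT, 106 and 153 in KO4 and 97 and 260 in KO8. In all 3 Pax genes both clones lay above WT and overlapped each other. Their log2 fold changes in KO4 were 1.24 ± 0.50 (Pax3), 1.23 ± 0.32 (Pax6) and 1.77 ± 0.68 (Pax7), with limma adjusted p-values of 0.0766 for Pax6, 0.211 for Pax7 and 0.23 for Pax3. In KO8 they were 1.61 ± 0.48, 1.12 ± 0.32 and 1.96 ± 0.66, with adjusted p-values of 0.083, 0.0713 and 0.114.

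Zic2 and Zic5, the pair made in pluripotent cells, did not separate from WT in KO4. Zic2 had 240 and 233 counts in WT, 245 and 267 in KO4 and 406 and 688 in KO8. Zic5 had 47 and 61 counts in WT, 39 and 70 in KO4 and 63 and 130 in KO8. Both KO8 libraries lay above WT for Zic2, while for Zic5 the normalised counts of KO8 and WT overlapped. The KO8 values had log2 differences of 1.05 ± 0.30 for Zic2 and 0.65 ± 0.47 for Zic5 that missed the threshold (limma, adjusted p = 0.0716 and 0.446).

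Msx1 was the member with less RNA in both clones. It had 351 and 327 counts in WT, 194 and 190 in KO4 and 242 and 266 in KO8, without overlap between the genotypes. The log2 fold change was -0.80 ± 0.15 in KO4 (adjusted p = 0.0293) and -0.52 ± 0.14 in KO8 (limma, adjusted p = 0.0635). Msx2, its paralogue, had 302 and 249 counts in WT, 366 and 371 in KO4 and 292 and 495 in KO8. Its KO8 libraries overlapped WT, and the log2 differences of 0.43 ± 0.27 in KO4 and 0.36 ± 0.26 in KO8 did not pass (limma, adjusted p = 0.447 and 0.459).

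**Figure D3:**
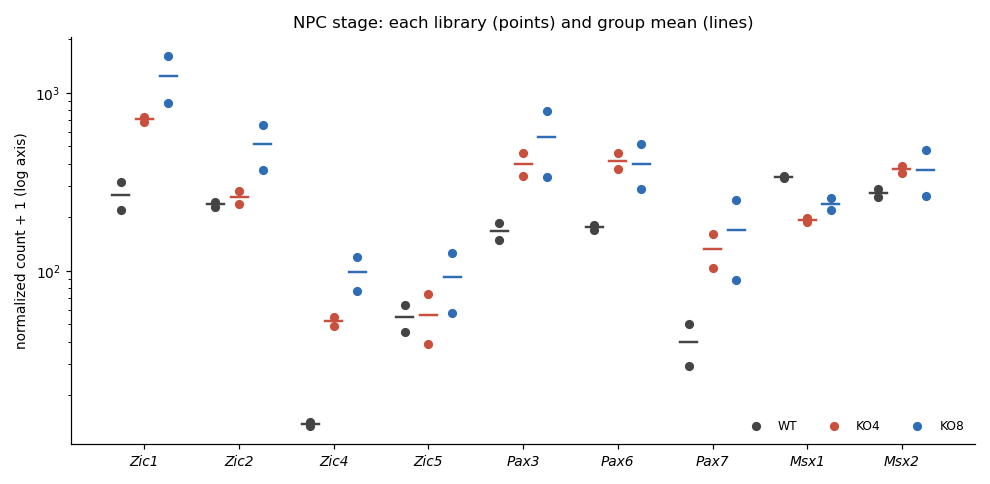
Normalised counts plus 1 (vertical axis, log scale) of the 9 members at the NPC stage in each library (points) with group means (lines), for WT (grey), KO4 (red) and KO8 (blue). Both clones lie above WT for Zic1, Zic4, Pax3, Pax6 and Pax7 and below it for Msx1, and the KO8 points are far apart.

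The NPC calls depended on the KO8 libraries. Without the second KO8 library, 7 of 9 members were called in KO4 and 7 in KO8, where 17.9% and 14.3% of all tested genes were called. Without the first, 7 and 8 members were called, against 17.9% and 24.3% of all genes. In both cases Zic1, Zic4, Pax3, Pax6 and Pax7 were called higher in both clones. A single library then stands for KO8 and is assumed to vary like the other groups. Without the second library the same 5 members lay above WT in every KO library, as did 19.6% of tested genes.

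The fold changes of KO8 without its second library were smaller for the Zic and Pax genes. On the log2 scale they were 1.75 ± 0.15 for Zic1 and 2.52 ± 0.45 for Zic4 (limma, adjusted p = 8.34e-10 and 0.000151). For the Pax genes they were 1.01 ± 0.20 (Pax3), 0.71 ± 0.19 (Pax6) and 1.23 ± 0.38 (Pax7), with limma adjusted p-values of 0.00053, 0.0101 and 0.0237. For Zic2 it was 0.64 ± 0.17 (adjusted p = 0.00742) and for Msx1 -0.63 ± 0.18 (limma, adjusted p = 0.0147). Zic5 (0.10 ± 0.38) and Msx2 (-0.0554 ± 0.18) were not called. Without either KO4 library or either WT library, nearly all calls of the stage were lost in KO4 and most in KO8. This held for members and other genes alike, so the loss is not particular to the members. With only WT and KO4 in the fit, the 7 KO4 calls were Zic1, Zic4, Pax3, Pax6, Pax7 and Msx2 (higher) and Msx1 (lower), where 17.9% of all tested genes were called. With only WT and KO8 no member was called, against 1.26% of all tested genes.

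Between the clones no member was called at the NPC stage by limma, where 52 genes (0.563%) were called and 1353 had an unadjusted p under 0.05. The KO4 minus KO8 differences with the smallest p-values were -0.93 ± 0.29 for Zic2, -0.89 ± 0.31 for Zic4 and -0.75 ± 0.26 for Zic1, with adjusted p-values of 0.207, 0.249 and 0.252. Without the second KO8 library these differences were -0.51 ± 0.16, -0.58 ± 0.32 and -0.31 ± 0.11, and no member was called between the clones, against 4.42% of all tested genes.

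Neural markers were also higher in the KO libraries. The 3 resolved of 6 neural progenitor markers, Sox1, Fabp7 and Hes5, summed to 7.17 to 11.5 CPM in WT, 35.0 to 40.1 in KO4 and 32.1 to 85.3 in KO8, and none was at 0 in a group. Of these, Fabp7 was called higher in KO8. The 2 resolved of 5 neuron markers, Elavl3 and Stmn2, summed to 35.8 to 38.9 CPM in WT, 61.9 to 76.9 in KO4 and 61.8 to 144 in KO8. The 6 resolved of 7 naive markers summed to 84.0 to 135 CPM in WT, 79.4 to 82.7 in KO4 and 126 to 218 in KO8. Acta2 and Tagln, the resolved 2 of 4 smooth muscle and mesenchyme markers, summed to 70.3 to 90.3 CPM in WT, 20.1 to 22.8 in KO4 and 46.1 to 64.3 in KO8, both called lower in KO4. The part of these cell types in the results was not tested. In all 3 resolved neural progenitor markers the second KO8 library was the highest of the stage.

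**Figure D4:**
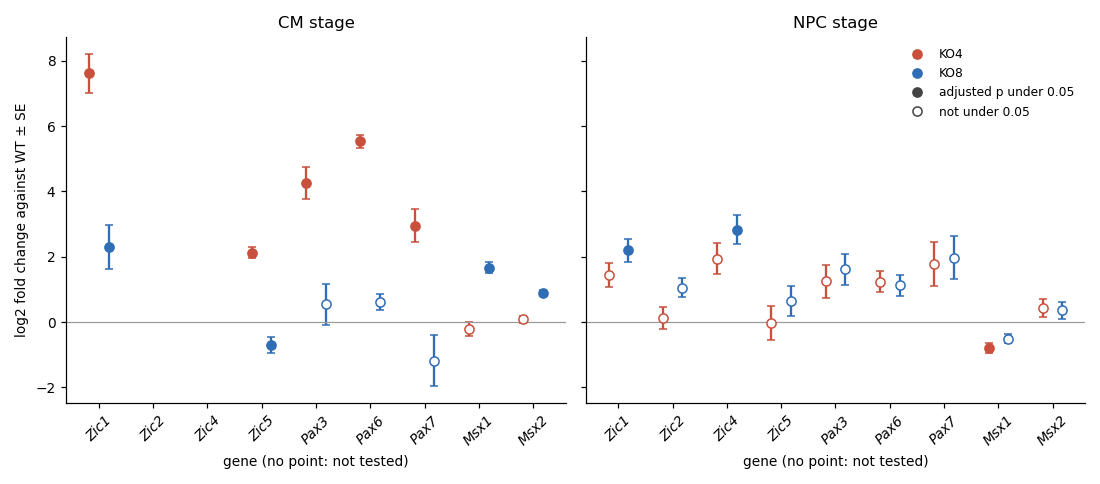
Log2 fold change against WT with its SE (vertical axis) for each member (horizontal axis) at the CM stage (left) and NPC stage (right) in KO4 (red) and KO8 (blue); filled points have an adjusted p under 0.05. Zic1 in KO4 reached 7.62 at the CM stage, and all NPC values lay between -0.80 and 2.83; a gene with no point was not tested.

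The effect of the knockout was then compared between the NPC and CM stages, in a fit of all 27 libraries. In KO4 the effect was smaller at the NPC stage by 6.18 ± 1.15 for Zic1, 4.30 ± 0.33 for Pax6, 3.03 ± 0.80 for Pax3 and 2.14 ± 0.50 for Zic5 on the log2 scale (limma, adjusted p = 0.000233, 9.22e-11, 0.0044 and 0.00218), where 33% of 9027 tested genes differed. The differences for Zic4 (-2.68 ± 1.15), Pax7 (-1.19 ± 0.95), Msx1 (-0.60 ± 0.27) and Msx2 (0.34 ± 0.22) did not pass. In KO8 only Msx1 passed among the 8 members tested, with a difference of -2.18 ± 0.23 (adjusted p = 1.21e-07), having risen at the CM stage and lain below WT at the NPC stage. The share over all genes was 16.5%. With limma-trend in place of voom weights, Pax3 in KO4 (-3.03 ± 1.86, adjusted p = 0.254) and Msx1 in KO8 (-2.17 ± 1.35, adjusted p = 0.378) were no longer called, with differences of the same size. Without the second KO8 NPC library, a fit added after seeing the data, the same 4 members differed in KO4 and Msx1 in KO8 (-2.29 ± 0.23, limma, adjusted p = 1.01e-08), and Msx2 in KO8 was called as well (-0.93 ± 0.17, adjusted p = 0.000177), where 38.1% and 17% of all genes differed. Zic2 was not tested, since its CM counts were not resolved, and the fit of Zic5 had no naive libraries.

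Across the groups of the 4 stages the members reached their highest levels in different places. Zic2, resolved at the NPC stage alone, is left out, and Zic5 is ranked over its 9 resolved groups, without the naive ones. The stages were normalised separately by the authors, so levels are compared between stages as CPM, without a test and with both KO8 NPC libraries in the means. Zic1 was highest in KO8 NPC at 74.1 ± 31.1 CPM (SD, n = 2), followed by KO4 CM at 49.5 ± 1.87, KO4 NPC at 42.1 ± 1.97 and WT NPC at 15.8 ± 4.06. These neighbours did not overlap. Zic4, Pax3 and Pax7 had KO8 NPC, KO4 NPC, KO4 CM and WT NPC as their 4 highest groups, in that order. The first 2 of these overlapped for Pax3 and Pax7 but not for Zic4. For these 4 genes, KO4 CM cultures thus held more RNA than WT NPC cultures, by 49.5 against 15.8 CPM for Zic1 and 16.1 against 9.96 for Pax3.

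Pax6 was highest in KO4 CM at 155 ± 0.342 CPM, far above KO4 NPC at 24.7 ± 3.63, KO8 NPC at 23.8 ± 9.55 and WT NPC at 10.4 ± 0.424. The 2 KO NPC groups overlapped. Below them, primed cells of all genotypes and the CM cultures of WT and KO8 lay between 3.33 and 5.28 CPM. Among its 9 resolved groups Zic5 was highest in primed cells, at 40.8 ± 4.85 CPM in WT, 38.3 ± 2.18 in KO8 and 36.5 ± 3.09 in KO4, all overlapping, and then in KO4 CM at 29.6 ± 3.12. In WT it was at 6.77 CPM in CM and 3.22 in NPC cultures. Msx1 was highest in KO8 CM at 23.0 ± 2.08 CPM, followed without overlap by WT NPC at 20.1 ± 0.38. Msx2 was highest in KO8 CM at 58.8 ± 1.31 CPM, then at 34.2 ± 4.46 in KO4 CM and 32.0 ± 0.653 in WT CM, which overlapped.

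For each of the 7 members resolved at all stages, the genes with the most similar pattern were taken by Pearson's r of the mean log2(CPM + 1) over the 12 groups, among 4040 genes resolved at all stages with at least 1 CPM in a group. For Zic1 these were Pax3 (r = 0.993) and Epha5 (0.987), and for Pax3 they were Dbx1 (0.993) and Zic1 (0.993). For Zic4 they were Serpinb9g (0.995) and Tll2 (0.994), for Pax7 Serpinb9e (0.996) and Serpinb9g (0.99), and for Pax6 Vat1l (0.996) and Lratd1 (0.979). For Msx1 they were St3gal6 (0.991) and Nrn1 (0.991), and for Msx2 Thsd7a (0.995) and Cnksr2 (0.992). The groups share stages and WT libraries, the Serpinb9 genes are close copies whose reads may be shared, and the values are given as a description.

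Lists of related genes were read against the shares of all tested genes. In naive cells Wnt3a and Bmp4 were called higher in both clones, Lmx1b and Olig3 higher and Pax8 lower in KO8, and Pax5 lower in KO4. In primed cells Lmx1a, Gli3 and Smo were higher and Pax8 and Ngfr lower in both clones. Naive Pax8 passed the filter only through WT and primed Lmx1a only through KO8. Of all genes, 23.1% and 22.5% were called in naive KO4 and KO8, and 20% and 14.6% in primed KO4 and KO8. At the CM stage those shares were 24.4% higher and 30.2% lower in KO4 and 13.1% higher and 13.8% lower in KO8, and at the NPC stage 3.91% in KO4 and 7.09% in KO8 in either direction. Of the Pax genes outside the set, 5 were tested at the CM stage. Of these 5, Pax2 and Pax5 (midbrain and hindbrain factors) rose and Pax1 and Pax9 (sclerotome and pharyngeal pouch factors) fell in KO4. In KO8, Pax2 and Pax9 rose and Pax1 fell. Pax2 went from 10 and 18 counts in WT to 561 and 552 in KO4 and 32 and 61 in KO8, and Pax5 from 10 and 5 to 296 and 220 in KO4 and 19 and 17 in KO8. Both stood clear of the other groups in KO4. At the NPC stage Pax2, Pax5 and Pax8 were tested and none was called. All 3 were higher than WT in every KO library, as were 16.5% of all tested genes. Their log2 differences were 1.42 to 2.92, with adjusted p-values (limma) of 0.101 to 0.235.

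Of 17 genes on the dorsal neural tube list, 5 were tested at the CM stage. In KO4, 4 rose (Lmx1a, Wnt1, Wnt3a, Dbx1), where 24.4% of all genes did, and none in KO8, where 13.1% did. Dbx1 is not confined to dorsal progenitors, so its rise does not mark that side. Wnt3a passed the filter only through KO4 and so had to differ. Wnt1, the ligand of the roof plate, had 4 and 22 counts in WT, 122 and 105 in KO4 and 8 and 7 in KO8. At the NPC stage 12 were tested, none was called in KO4 and 2 rose in KO8, where 4.11% of all genes did. These were Gsx1, a factor of dorsal interneuron progenitors, with 0 and 4 counts in WT, 21 and 11 in KO4 and 32 and 68 in KO8 (adjusted p = 0.0326), which passed the filter only through KO8, and Lmx1a, a roof plate factor, with 10 and 4 in WT, 16 and 13 in KO4 and 36 and 40 in KO8 (limma, adjusted p = 0.0341). Neurog1 and Dbx1 were higher in every KO library than in WT, as were 16.5% of all tested genes. Their limma adjusted p-values were 0.0519 and 0.0534 at the lowest.

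Of 13 genes on the ventral neural tube list, 7 were tested at the CM stage. In KO4, Olig2 and Gli2 rose and Shh, Foxa2, Nkx2-9 and Gli1 fell, so that 6 of 7 were called, against 54.6% of all genes. Shh, the ventral signal, had 243 and 248 counts in WT, 8 and 1 in KO4 and 315 and 224 in KO8. In KO8, Foxa2, Gli1 and Gli2 rose and Nkx2-9 fell, against 26.9% of all genes in either direction. At the NPC stage 5 were tested and Shh alone was called, in KO8, where 7.09% of all genes were. It had 280 and 235 counts in WT, 209 and 179 in KO4 and 88 and 35 in KO8, with a log2 fold change of -2.28 ± 0.32 in KO8 (adjusted p = 0.0113) and -0.39 ± 0.22 in KO4 (limma, adjusted p = 0.409). Irx3, Foxa2 and Olig2 did not pass. Irx3, which is not confined to ventral progenitors, was higher in every KO library than in WT, as were 16.5% of all tested genes. It had 348 and 392 counts in WT, 938 and 1036 in KO4 and 760 and 1428 in KO8. Its log2 fold changes were 1.44 ± 0.35 in KO4 and 1.41 ± 0.35 in KO8 (limma, adjusted p = 0.067 and 0.0517). Olig2 was also higher in every KO library, with 4 and 7 counts in WT, 14 and 11 in KO4 and 10 and 18 in KO8. It would not have passed the filter without either clone.

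Of 10 neural crest genes, 9 were tested at the CM stage, of which 5 rose (Sox9, Sox10, Foxd3, Tfap2a, Tfap2b) and 4 fell (Snai1, Snai2, Twist1, Ngfr) in KO4, against 24.4% and 30.2% of all genes. Sox10 and Tfap2b passed the filter only through KO4 and so had to differ. In KO8, Snai2 and Tfap2a rose and Sox9, Foxd3, Twist1 and Ngfr fell, against 13.1% and 13.8% of all genes. At the NPC stage 6 were tested, of which 2 were called in KO4 and 1 in KO8, against 3.91% and 7.09% of all genes. Ngfr, the low-affinity neurotrophin receptor, fell in both clones, from 1015 and 924 counts in WT to 299 and 310 in KO4 and 488 and 589 in KO8, with log2 fold changes of -1.66 ± 0.14 and -0.95 ± 0.12 (limma, adjusted p = 0.00431 and 0.00749). Snai1, a repressor of E-cadherin, rose in KO4 by 0.76 ± 0.11 (adjusted p = 0.0163). Foxd3 and Tfap2b were higher in every KO library than in WT, as were 16.5% of all tested genes. Neither passed, at limma adjusted p-values of 0.0507 and 0.0555 in KO8. The list genes called above in KO8 kept their direction without the second KO8 library. Their KO8 log2 fold changes were then 4.29 ± 0.92 for Gsx1, 2.25 ± 0.61 for Lmx1a, -1.68 ± 0.26 for Shh and -1.13 ± 0.13 for Ngfr. The list genes named above as higher in every KO library without a call also stayed above WT in that fit. They were at 1.01 ± 0.22 (Pax2), 1.11 ± 0.37 (Pax5), 1.96 ± 0.48 (Pax8), 1.38 ± 0.20 (Neurog1) and 1.25 ± 0.28 (Dbx1). Irx3 was at 0.90 ± 0.14, Olig2 at 0.73 ± 0.79, Foxd3 at 2.15 ± 0.54 and Tfap2b at 1.28 ± 0.28.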

How the data were processed

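The authors trimmed reads with Trim Galore 0.6.7, aligned them to mm9 with HISAT2 2.2, counted them per gene with featureCounts and normalised and tested them with DESeq2 1.46.0. Strand and pair settings are not given in the sources used here. Each of the 8 deposited tables sets 1 clone against WT at 1 stage and holds a base mean, a signal that is the authors' mean of normalised counts over both groups. The fold changes, errors and p-values of the authors' comparisons in the same tables were not used.

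Counts per library were rebuilt from the base means. The mean of a WT and clone table is a sum of whole counts, each divided by the size factor of its library. The size factors were read from genes with single reads. A step found in both tables of a stage belongs to WT, and one found in a single table belongs to that clone. All whole-number solutions within the rounding of both tables were then listed, and a solution was kept where its weight, given the spread within groups, was at least 0.99. Genes were used up to the mean level at which 99% were settled (80 at the naive stage, 900 at the others), which left 18.9% of genes with a mean of at least 10 at the naive stage and 63.5% to 67.5% at the others. All members used had 1 solution, except Msx2 at the CM stage, which had 2. Among counts of 1 to 20, 59.6% to 63.3% were even, so reads of a pair may have been counted singly and precision is lower than the counts imply. Intervals and floors (3 counts) cover counting error only, and the intervals are too narrow if reads of a pair were counted singly. The procedure and the fits were tested on simulated counts. CPM were taken over the mean normalised total of a stage.

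Genes with a mean normalised count of at least 10 were fitted per stage in limma 3.58.1 (R 4.3.3) with voom weights and the authors' size factors, WT, KO4 and KO8 sharing 1 spread. P-values are two-sided and adjusted by Benjamini-Hochberg over all tested genes, with calls under 0.05. The stage comparison used 1 fit of 27 libraries, with weights set within each stage, and tested genes with a mean of at least 10 at the CM or NPC stage. A gene whose counts were unsettled, or whose mean was under 1, at a stage entered without it. The members and gene lists were chosen with earlier results of these data known. All 9 members are described, other genes by list, with up to 4 examples by the smallest adjusted p at the NPC stage. Further genes of the lists described at the naive, primed and CM stages were chosen after their values were seen. Alternatives changed the test, pseudocount, scaling, filter and libraries. One gene of these lists is not reported here.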

Additional observations from a re-analysis of the deposited data

Results flagged for a closer look

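Each result here is a difference between stages or between clones that passed a test of the difference itself. In KO4 the log2 effect of the knockout at the NPC stage minus that at the CM stage was -6.18 for Zic1, -4.30 for Pax6, -3.03 for Pax3 and -2.14 for Zic5. In KO8 it was -2.18 for Msx1. With limma-trend in place of voom weights, Pax3 in KO4 (-3.03 ± 1.86, adjusted p = 0.254) and Msx1 in KO8 (-2.17 ± 1.35, adjusted p = 0.378) were not called. Between the clones at the CM stage, KO4 minus KO8 was 5.32 for Zic1, 2.83 for Zic5, 3.73 for Pax3, 4.91 for Pax6 and 4.14 for Pax7 on the log2 scale, and -1.87 for Msx1 and -0.79 for Msx2. Pax7 passed the filter only through KO4, so that it had to differ. Groups of 2 or 3 libraries are too small to look for a single library far from the others.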

How the results depend on the processing

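No paired analysis was possible because the libraries behind the base means cannot be tied to the replicate numbers of the labels. All 20 differences of members between KO4 and KO8 kept their direction and their side of the threshold with only the KO4 and KO8 libraries in the fit. Of 560 alternative values of the 40 member fold changes, 467 kept both, 25 lost and 57 gained a call, and 11 reversed. The reversed values were all uncalled, each with 1 library left out, and ran over such fits from -0.0617 to 0.14 for Msx2 in naive KO4, -0.12 to 0.10 for Msx2 in naive KO8, -0.20 to 0.0402 for Zic5 in primed KO8, -0.48 to 0.0727 for Msx2 in primed KO8, -0.43 to 0.0156 for Msx1 in CM KO4, -0.0414 to 0.23 for Msx2 in CM KO4, -0.48 to 0.46 for Zic5 in NPC KO4 and -0.0554 to 0.80 for Msx2 in NPC KO8, which was called without the first KO8 library.

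The number of members called was 5 of 7 for CM KO4 in the fit reported and under every alternative with the same 7 members (6 of 8 without a filter, 4 of 6 with a mean of at least 50). For CM KO8 it was 4, and 5 with limma-trend at either pseudocount (with Pax6), 3 without a filter and with WT and KO8 alone (without Zic5), 2 with all 27 libraries (Msx1, Msx2) and 2 to 3 with 1 library left out. For NPC KO4 it was 1, and 4 with limma-trend at either pseudocount (0.5 or 2), 7 with WT and KO4 alone, 6 with all 27 libraries and 0 to 7 with 1 library left out. For NPC KO8 it was 2, and 6 with limma-trend at either pseudocount, 0 with WT and KO8 alone, 7 with all 27 libraries and 0 to 8 with 1 library left out. For naive KO8 it was 0, and 1 without a filter (Msx1, log2 fold change 2.65, adjusted p = 0.0241). For primed KO4 it was 0, and 0 to 1 with 1 library left out, the call being Zic5 without the second WT library (-0.28, adjusted p = 0.0471). A mean of at least 50 left no naive member to test. The share of all genes called in CM KO4 was 54.6% in the fit reported and 53.7% and 54.9% with limma-trend. It was 36% without a filter, 58.8% with a mean of at least 50, 51.8% with WT and KO4 alone and 56.6% with all 27 libraries. For CM KO8 the share was 26.9%, and 22.3% and 24.5% with limma-trend. It was 14.3% without a filter, 23.6% with WT and KO8 alone and 29.5% with all 27 libraries. In naive KO8 it was 8.26% without a filter. Over all genes, NPC KO4 calls moved from 361 to 661 and 648 (limma-trend), 1654 (WT and KO4 alone), 983 (all 27 libraries) and 0 to 1654 (1 library left out), and NPC KO8 calls from 655 to 1034 and 1046, 116, 1525 and 1 to 2243. Primed KO8 calls went from 1309 to 841 without a filter and to between 746 and 1404 with 1 library left out, primed KO4 calls from 1790 to between 1134 and 1717, and CM KO8 calls from 2451 to between 1174 and 2327. The share of higher calls moved from 49.6% to 61% (limma-trend) in NPC KO4. Of the 16 stage differences, 2 lost their call with limma-trend while staying as large, Pax3 in KO4 (-3.03, adjusted p = 0.254) and Msx1 in KO8 (-2.17, adjusted p = 0.378), and Zic4 in KO8 gained one (4.00, adjusted p = 0.0437). Without the second KO8 NPC library, an alternative added after seeing the data, none was lost and Msx2 in KO8 gained one (-0.93, adjusted p = 0.000177). The causes were not tested.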
